A study of Homo sapiens with 8 samples.

Results

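The autophagy and lysosome genes followed here are 34 of the 60623 genes in the count table of ARPE-19 cells, an established human line of retinal pigment epithelium, the cell layer that supports the photoreceptors. The rule was a fixed list of gene symbols, put together with earlier results of these data known, and each symbol was found in the table. Shares of the 34 genes and of all genes are therefore set side by side as a description. They comprise 5 cargo receptors, 4 ATG8-family genes, 5 genes of initiation and nucleation, 5 of conjugation, 2 transcription factors, 3 lysosomal membrane proteins, 4 proteases, 3 glycosidases and 3 subunits of the V-ATPase. All 34 were among the 15010 genes that passed the filter on low counts.

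Messenger RNA had been sequenced after 24 h of treatment in 4 groups of 2 biological replicates, which gives 8 libraries, and every mean ± SD or SE below has n = 2 per group. Control cells received phosphate-buffered saline (PBS), the vehicle. The fucoidan group received 400 µg/mL of crude fucoidan from Fucus vesiculosus, a sulfated polysaccharide of brown seaweed. The particulate group received 200 µg/mL of a diesel particulate reference material that the labels call PM2.5, and the combination group received both agents at the same time. The particles had first been suspended in DMSO, which no control library received alone, so effects of particles and of that solvent cannot be told apart. All cells were of the same line, so replicates carry no difference between donors, and p-values measure the spread between these libraries.

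In autophagy, a membrane sheet closes around cytoplasmic cargo and the resulting autophagosome fuses with a lysosome, where acid hydrolases digest the contents. The ULK1 complex starts the process, the BECN1 lipid kinase complex and WIPI proteins nucleate the membrane, and a conjugation system (ATG3, ATG5, ATG7, ATG12, ATG16L1) attaches ATG8-family proteins such as LC3B to it. Cargo receptors such as p62 (SQSTM1) bind ubiquitin-tagged cargo and ATG8 proteins together. The V-ATPase pumps protons into the lysosome, and the transcription factors TFEB and TFE3 activate many autophagy and lysosome genes through the so-called CLEAR motif. Retinal pigment epithelium is known for a heavy lysosomal load, because it digests the outer segments shed by photoreceptors every day.

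Total counts ran from 12993565 to 17019284 per library, and the 34 genes took 0.506% and 0.520% of them in the control libraries, 0.502% and 0.510% with fucoidan, 0.727% and 0.786% with particulate and 0.652% and 0.724% in the combination. Much of this rise lay in a single gene, SQSTM1. It held 11081 and 11753 of the 74663 and 81416 reads of the 34 genes in control. With particulate it held 45381 and 38130 of 132447 and 114281, and in the combination 38023 and 34864 of 116816 and 109003. Of 18 markers of retinal pigment epithelium 13 passed the filter, with summed levels of 4519 to 4845 CPM in control, 4831 to 4960 CPM with fucoidan, 2640 to 3134 CPM with particulate and 2455 to 2827 CPM in the combination, and their part in the results was not tested. The keratins KRT8 and KRT18 and EZR held most of these sums. The 5 markers that missed the filter were nearly absent: the visual cycle enzyme gene RPE65 had 2 reads in all libraries together, the pigment genes TYRP1 15, TYR 24 and DCT 0, and TTR 0. Among the other markers, RDH10 had 16699 reads in all libraries together, TJP1 10256, OTX2 8000 and MITF 5788. Lower counts were found for PMEL (1120 reads), LRAT (516), RLBP1 (511), RDH5 (306), BEST1 (250) and SERPINF1 (172). BEST1 had 10 and 5 reads in control against 36 and 55 with particulate, opposite to the sum. Macrophage markers summed to 3.05 to 5.23 CPM in any library, endothelial markers to 0.248 to 0.693 CPM and melanocyte markers to 0.0696 CPM or less. The fibroblast list rested on PDGFRB, the 1 of its 5 genes that passed the filter, with sums of 211 to 252 CPM in control, 263 to 286 CPM with fucoidan, 23.8 to 26.5 CPM with particulate and 35.8 to 43.8 CPM in the combination. The photoreceptor and Mueller glia list, nearly all GLUL, summed to 237 to 250 CPM without particulate and 136 to 181 CPM with it. Over all genes, the median absolute log2 difference between replicates was 0.32 in the combination, 0.27 with particulate, 0.15 with fucoidan and 0.14 in control. Both groups with particulate thus had a wider spread. Over the 34 genes it was 0.32 in the combination, against 0.07 in control, 0.05 in the fucoidan group and 0.12 in the particulate group. The replicates of the combination group stood apart from each other, and 29 of 34 genes were higher in replicate 1. Hypoxia and glycolysis indicator genes moved with that split, at a summed 10890 CPM in combination replicate 1 against 1869 CPM in replicate 2, and 2565 to 4728 CPM in the other 6 libraries.

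In levels per length (TPM), lysosomal proteases and p62 led the group in control cells. The aspartyl protease CTSD had 797 ± 87 TPM, the cysteine protease CTSB 437 ± 14 TPM, SQSTM1 370 ± 23 TPM, the lysosomal membrane protein LAMP1 240 ± 16 TPM and the cysteine protease CTSL 221 ± 0.03 TPM. Of the 33 pairs of neighbours in the order of control levels, 22 did not overlap between control libraries, among them all pairs from CTSD down to OPTN. OPTN, ATG13, GABARAPL2 and NBR1 overlapped in turn (86.0 to 90.1 TPM), as did ATP6V0D1, ATP6V1A, TAX1BP1 and GLA (49.1 to 55.7 TPM). At the other end lay ATG16L1 with 14.3 ± 0.02 TPM, WIPI1 with 9.99 ± 0.28 TPM, ATG7 with 9.36 ± 0.18 TPM and TFEB with 5.45 ± 0.51 TPM, and these 4 did not overlap either. TFE3, with 123 ± 6 TPM, was far above its paralog TFEB. With particulate, SQSTM1 reached 1174 ± 17 TPM and was the highest of the 34, above CTSD with 860 ± 73 TPM.

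**Figure D1:**
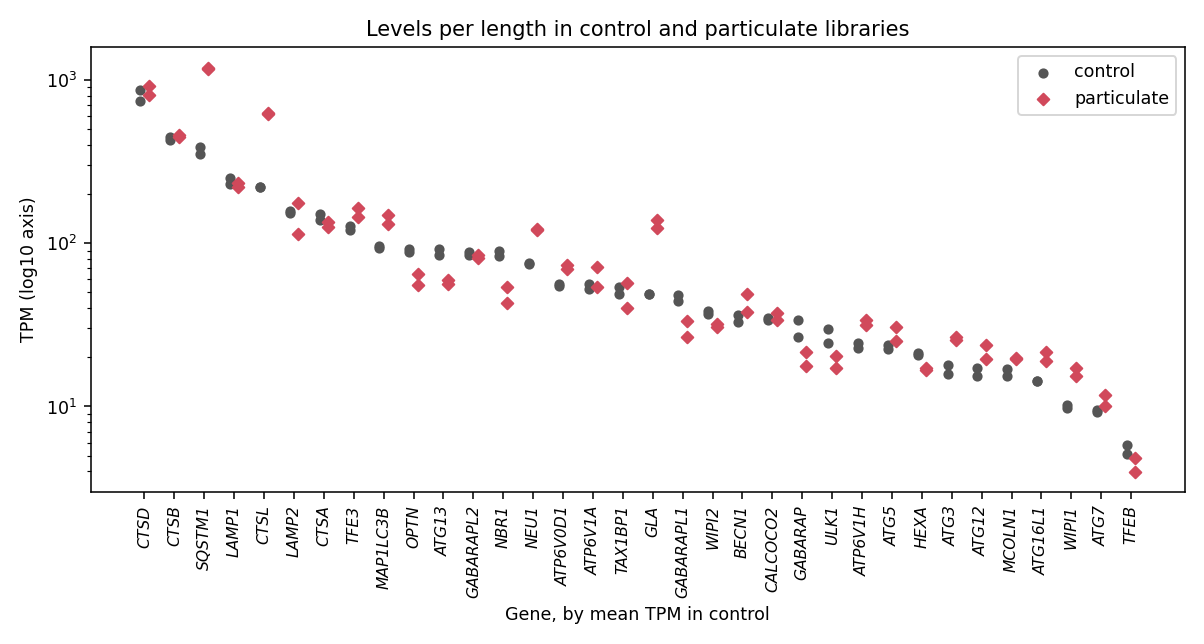
Level per length (TPM, log10 axis) of each of the 34 genes, with 1 point per library, in the 2 control libraries (circles) and the 2 particulate libraries (diamonds), ordered by mean control level. SQSTM1, CTSL and GLA stand clear of their control points on the upper side, while NBR1, GABARAPL1 and ATG13 lie below theirs.

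Particulate against control asks what the diesel particles did to cells that had no fucoidan. A total of 10 of the 34 genes changed: 7 rose (20.6%, where 9.11% of all 15010 genes rose) and 3 fell (8.82%, where 11.5% of all genes fell). SQSTM1, CTSL and GLA rose most, each by more than a log2 unit, and WIPI1, NEU1, ATG3 and ATG16L1 rose by 0.51 to 0.72 on the log2 scale. NBR1, GABARAPL1 and ATG13 fell by 0.82, 0.62 and 0.59. The median log2 fold change of the 34 genes was 0.18, against 0.01 over all genes. An unadjusted p under 0.05 was found for 17 of 34, and for 34.2% of all genes. Tests are edgeR's quasi-likelihood tests on the counts of all 8 libraries, with Benjamini-Hochberg adjustment over all genes and 0.05 as the threshold, and levels are CPM scaled by TMM. In bulk RNA, a change in each cell and a change in how many cells express a gene cannot be told apart.

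**Figure D2:**
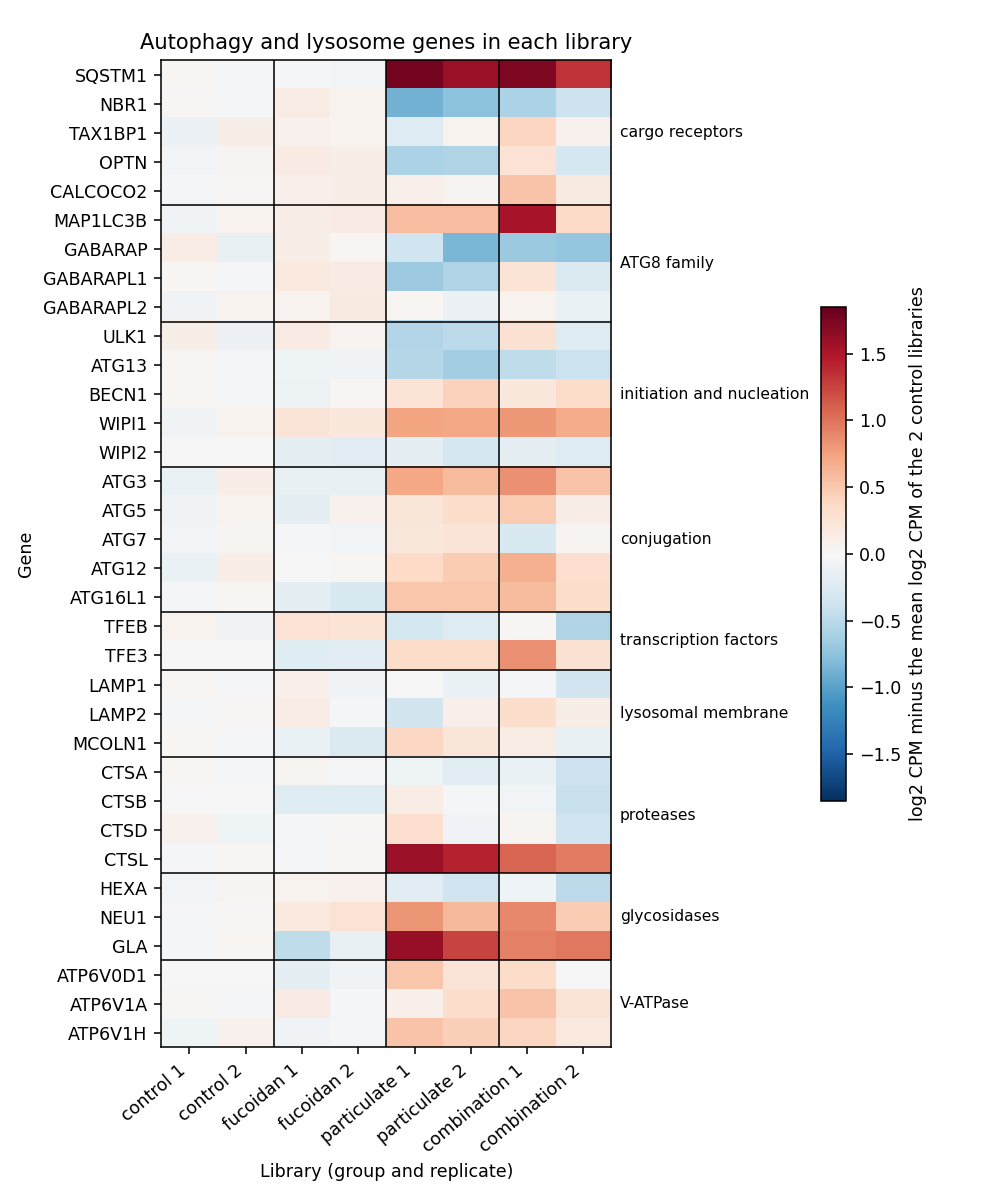
Colour shows log2 CPM minus the mean log2 CPM of the 2 control libraries, for the 34 genes (rows, by role) in the 8 libraries (columns). SQSTM1, CTSL and GLA are red in all 4 libraries with particulate and NBR1 is blue in them, while combination replicate 1 is redder than replicate 2 in most rows.

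Among the cargo receptors, SQSTM1 rose and NBR1 fell. SQSTM1 (chr5:179806398-179838078, plus strand, GRCh38 coordinates of GENCODE 29 here and below), which encodes p62, had 784 and 751 CPM in the control libraries, 757 and 740 CPM with fucoidan, 2616 and 2330 CPM with particulate and 2534 and 1943 CPM in the combination. All 4 libraries with particulate thus lay far above the 4 without it. The change against control was 3.22-fold (log2 1.69 ± 0.16 SE, edgeR adjusted p = 0.000163), and it passed the test in 16 of 16 alternative analyses. NBR1 (chr17:43170481-43211689, plus strand), a receptor of ubiquitin-tagged cargo with a domain layout like that of p62, went the other way. It had 202 and 196 CPM in control, 219 and 209 CPM with fucoidan, 108 and 117 CPM with particulate and 133 and 153 CPM in the combination, again with no overlap between libraries with and without particulate. Its change against control was 1.77-fold lower (log2 -0.82 ± 0.14, adjusted p = 0.00367), with adjusted p = 0.0526 when control replicate 1 was left out.

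The other 3 receptors were not called. OPTN (optineurin), a receptor for damaged mitochondria and bacteria, had 123 and 133 CPM in control and 85.2 and 86.9 CPM with particulate (log2 -0.57 ± 0.19, adjusted p = 0.0621), and it passed in 7 of 16 alternatives. TAX1BP1 had 120 and 139 CPM in control and 109 and 135 CPM with particulate. CALCOCO2 (NDP52), a receptor for invading bacteria, had 77.8 and 79.7 CPM in control against 84.1 and 81.2 CPM. The receptors did not share a direction. The ratio of SQSTM1 to NBR1 in TPM was 4.33 and 4.27 in the control libraries, 26.9 and 22.2 with particulate and 21.3 and 14.2 in the combination.

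Of the ATG8 family, whose products are anchored in the autophagosome membrane, GABARAPL1 fell and no other member was called. GABARAPL1 (chr12:10212458-10223130, plus strand) had 52.7 and 50.5 CPM in control and 32.3 and 35.0 CPM with particulate (log2 -0.62 ± 0.19, adjusted p = 0.0429). This call was lost in 7 of 16 alternatives, among them each removal of a control, fucoidan or particulate library. GABARAP had 17.8 and 14.6 CPM in control against 12.6 and 9.0 CPM (adjusted p = 0.0763), and GABARAPL2 68.3 and 74.8 CPM against 73.0 and 66.2 CPM. MAP1LC3B (LC3B, chr16:87383995-87404779, plus strand), the ATG8 protein most used to count autophagosomes, had 126 and 137 CPM in control and 196 and 195 CPM with particulate. These groups did not overlap, while the fit, in which all groups share an estimate of spread, gave log2 0.57 ± 0.30 with adjusted p = 0.205. Its combination replicates had 377 and 168 CPM, and without either of them the difference between particulate and control passed the test.

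Within the family, MAP1LC3B took a larger share of the ATG8 messages with particulate. It accounted for 33.5% and 36.3% of the family's summed TPM (MAP1LC3A, MAP1LC3B, MAP1LC3C, GABARAP, GABARAPL1 and GABARAPL2) in the control libraries, 35.3% and 35.0% with fucoidan, 47.4% and 50.1% with particulate and 60.5% and 44.9% in the combination. The family's total was 278 and 265 TPM in control, 309 and 305 TPM with fucoidan, 275 and 297 TPM with particulate and 434 and 296 TPM in the combination. The totals of control and particulate overlapped, while combination replicate 1 stood above all other libraries. The shares and totals were not tested.

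Of 5 initiation and nucleation genes, WIPI1 rose and ATG13 fell. WIPI1 (chr17:68420948-68457513, minus strand), which reads the lipid signal on the growing membrane, had 9.0 and 9.8 CPM in control and 15.6 and 15.3 CPM with particulate (log2 0.72 ± 0.17, adjusted p = 0.0176). ATG13 (chr11:46617527-46674818, plus strand), a subunit of the ULK1 complex, had 174 and 166 CPM in control and 118 and 109 CPM with particulate (log2 -0.59 ± 0.13, adjusted p = 0.0146). Both calls were lost without either control library, and ATG13 also without particulate replicate 2. The kinase gene ULK1 had 61.3 and 52.5 CPM in control and 39.0 and 40.4 CPM with particulate (log2 -0.52 ± 0.19, adjusted p = 0.0787). BECN1 had 62.4 and 59.9 against 72.8 and 81.7 CPM, and WIPI2 92.9 and 93.6 against 82.6 and 74.7 CPM. ATG13, ULK1 and WIPI2 thus lay below control and WIPI1 and BECN1 above it, with no overlap between groups for any of the 5. Of these, WIPI1 and ATG13 alone were called, and the share of all genes that separated in this way was not counted. ATG101, another subunit of the ULK1 complex and not one of the 34, lay above control, unlike ATG13 and ULK1. It had 43.7 and 41.3 CPM in control against 70.3 and 55.9 CPM (log2 0.57 ± 0.20, adjusted p = 0.0783), so the complex had no common direction.

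All 5 conjugation genes had positive log2 fold changes, from 0.23 to 0.64, and 2 of them rose. The median over all genes was 0.01, and the share of all genes with a positive change was not counted. ATG3 (chr3:112532509-112562046, minus strand), the E2-like enzyme that hands ATG8 proteins to the lipid, had 26.2 and 30.8 CPM in control and 46.4 and 42.5 CPM with particulate (log2 0.64 ± 0.17, adjusted p = 0.0261). ATG16L1 (chr2:233210051-233295674, plus strand), which directs the ATG12-ATG5 conjugate to the membrane, had 23.3 and 24.4 CPM against 34.2 and 34 CPM (log2 0.51 ± 0.16, adjusted p = 0.0476). The ATG16L1 call was held by 5 of 16 alternatives and that of ATG3 by 10, and both were lost without any single control, fucoidan or particulate library. ATG12, the ubiquitin-like modifier, had 36.7 and 43.2 CPM against 51.7 and 55.0 CPM (adjusted p = 0.113), ATG5, its partner, 34.4 and 37.9 against 42.3 and 45.2 CPM, and ATG7, the E1-like enzyme, 22 and 23.6 against 26.5 and 27 CPM. In each of the 5 genes both particulate libraries lay above both control libraries. How many of all genes separated in this way was not counted, so it does not set these genes apart. The shared direction did not hold in the combination, where ATG7 had 18.8 and 23.7 CPM. Its log2 fold change there was -0.10 against control and -0.06 against fucoidan.

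The transcription factors and the lysosomal membrane genes held no call. TFEB had 8.8 and 8.1 CPM in control and 6.7 and 7.1 CPM with particulate, and TFE3 145 and 142 against 181 and 181 CPM, so the paralogs moved apart without passing the test (adjusted p = 0.417 and 0.226). LAMP1 had 389 and 371 against 376 and 350 CPM, and LAMP2, the other abundant glycoprotein of the lysosomal membrane, 234 and 240 against 188 and 252 CPM. The calcium channel gene MCOLN1 had 18.1 and 17.2 against 23.0 and 20.5 CPM (log2 0.31 ± 0.18, adjusted p = 0.253).

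Among the proteases CTSL rose alone. CTSL (chr9:87725519-87731393, plus strand), a cysteine protease of the lysosome, had 110 and 116 CPM in control, 111 and 116 CPM with fucoidan, 342 and 303 CPM with particulate and 238 and 219 CPM in the combination. Its change against control was 2.86-fold (log2 1.51 ± 0.14, adjusted p = 0.000139), the lowest adjusted p of the 34 genes, and it passed in 16 of 16 alternatives. CTSB, a related cysteine protease, had 883 and 881 against 974 and 869 CPM, CTSD 713 and 639 against 839 and 648 CPM, and CTSA, a carboxypeptidase that also protects NEU1 and the beta-galactosidase, 239 and 229 against 221 and 205 CPM. The 3 were within 0.14 log2 units of control, with adjusted p of 0.551 to 0.810.

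Of the glycosidases GLA and NEU1 rose. GLA (chrX:101397803-101408012, minus strand), the alpha-galactosidase whose loss causes Fabry disease, had 30.1 and 31.5 CPM in control, 22.2 and 28.1 CPM with fucoidan, 94.1 and 72.9 CPM with particulate and 58.5 and 60.5 CPM in the combination. This was 2.71-fold above control (log2 1.44 ± 0.18, adjusted p = 0.000734), in 16 of 16 alternatives. NEU1 (chr6:31857659-31862906, minus strand), a sialidase, had 97.1 and 99.2 CPM in control and 173 and 149 CPM with particulate (log2 0.71 ± 0.17, adjusted p = 0.0182), and lost the call without either control library or particulate replicate 1. HEXA, a subunit of hexosaminidase A, had 70.4 and 75.3 against 63.4 and 56.3 CPM.

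The V-ATPase subunits were not called. Each lay above control in both particulate libraries, a separation whose share over all genes was not counted. ATP6V1H, a regulatory subunit of the cytosolic part, had 31.5 and 35.1 against 47.8 and 45 CPM (log2 0.48 ± 0.15, adjusted p = 0.0537). ATP6V0D1, of the membrane part, had 124 and 127 against 179 and 148 CPM (log2 0.39 ± 0.17), and ATP6V1A, the subunit that binds ATP, 77.5 and 75.8 against 82.2 and 95.6 CPM (log2 0.21 ± 0.16).

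**Figure D3:**
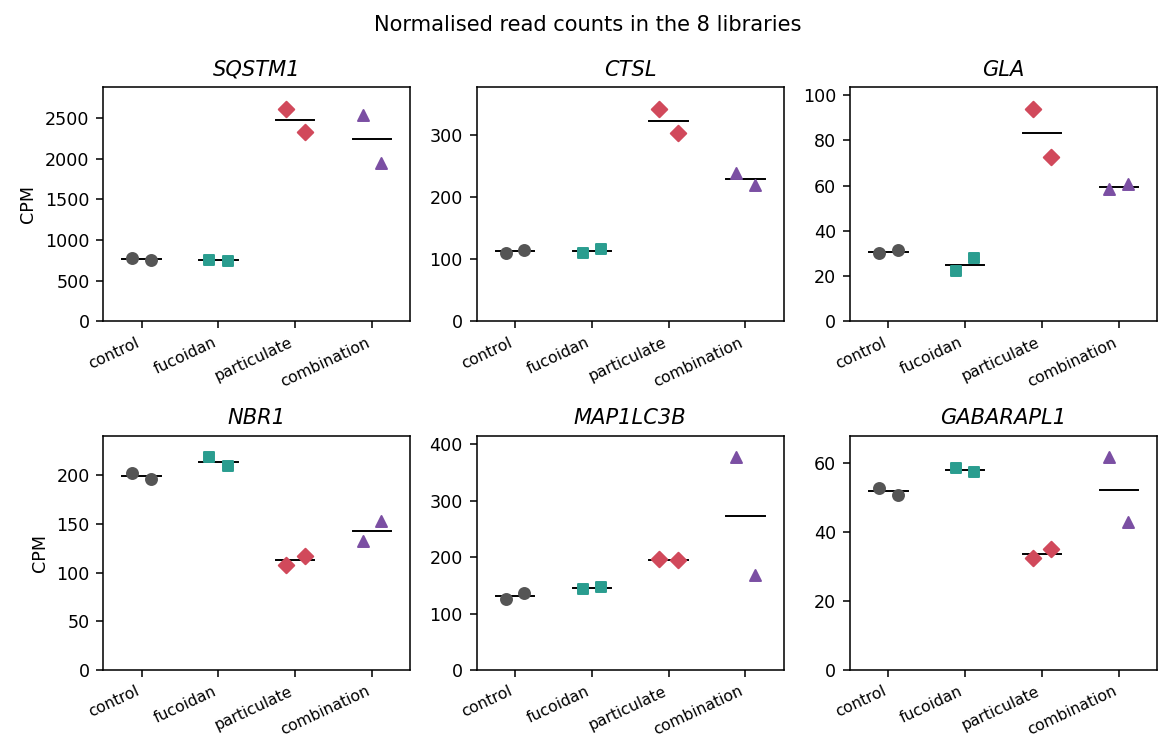
Normalised read counts (CPM, each axis from 0) of SQSTM1, CTSL, GLA, NBR1, MAP1LC3B and GABARAPL1, with 1 point per library, 2 per group, and a line at the group mean. SQSTM1, CTSL and GLA are higher in the 4 libraries with particulate and NBR1 lower, and MAP1LC3B has 377 CPM in combination replicate 1 against 168 CPM in replicate 2.

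Promoter sequences are shown for the 3 genes that rose most and for 3 genes that hold the CLEAR core, to set the letters beside the changes. They are RefSeq windows of GRCh38.p14, 250 bases before to 50 after a start site, 5′ to 3′ on the gene's strand, and 29 of the 34 genes had at least 1 window. Capitals mark matches on either strand to TCACGTGA (the core of the CLEAR motif, bound by TFEB and TFE3), CACGTG (the E-box, which the CLEAR core contains), TGACNNNGC (the core of the antioxidant response element, bound by NRF2) or TGATGNAAN (a C/EBP-ATF site). In LAMP1 the antioxidant match and an E-box share letters. SQSTM1 has 3 windows, none with a match, of which chr5:179820655-179820954 (plus strand) is shown with CTSL at chr9:87725869-87726168 (plus), GLA at chrX:101407876-101408175 (minus), ATG3 at chr3:112561913-112562212 (minus), LAMP1 at chr13:113296989-113297288 (plus) and MCOLN1 at chr19:7522374-7522673 (plus).
SQSTM1: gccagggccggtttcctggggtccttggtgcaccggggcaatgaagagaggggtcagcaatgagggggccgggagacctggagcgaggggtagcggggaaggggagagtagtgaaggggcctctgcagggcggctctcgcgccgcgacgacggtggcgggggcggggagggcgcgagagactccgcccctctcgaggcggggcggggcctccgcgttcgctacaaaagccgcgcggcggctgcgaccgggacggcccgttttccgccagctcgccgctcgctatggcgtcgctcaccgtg
CTSL: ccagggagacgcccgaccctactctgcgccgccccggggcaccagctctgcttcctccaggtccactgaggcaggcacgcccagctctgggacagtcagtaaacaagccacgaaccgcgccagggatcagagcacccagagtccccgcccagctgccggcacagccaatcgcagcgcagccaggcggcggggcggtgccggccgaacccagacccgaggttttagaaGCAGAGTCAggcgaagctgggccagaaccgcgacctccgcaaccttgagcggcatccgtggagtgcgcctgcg
GLA: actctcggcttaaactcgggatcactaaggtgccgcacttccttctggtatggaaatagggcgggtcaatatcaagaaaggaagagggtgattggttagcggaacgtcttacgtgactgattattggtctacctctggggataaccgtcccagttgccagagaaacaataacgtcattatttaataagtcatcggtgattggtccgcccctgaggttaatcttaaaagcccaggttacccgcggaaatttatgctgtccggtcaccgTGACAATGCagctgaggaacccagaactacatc
ATG3: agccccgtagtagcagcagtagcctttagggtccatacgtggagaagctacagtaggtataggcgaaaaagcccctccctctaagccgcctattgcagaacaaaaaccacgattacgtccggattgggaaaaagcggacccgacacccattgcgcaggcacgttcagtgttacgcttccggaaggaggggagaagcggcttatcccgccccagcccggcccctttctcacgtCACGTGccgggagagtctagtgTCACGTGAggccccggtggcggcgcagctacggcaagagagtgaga
LAMP1: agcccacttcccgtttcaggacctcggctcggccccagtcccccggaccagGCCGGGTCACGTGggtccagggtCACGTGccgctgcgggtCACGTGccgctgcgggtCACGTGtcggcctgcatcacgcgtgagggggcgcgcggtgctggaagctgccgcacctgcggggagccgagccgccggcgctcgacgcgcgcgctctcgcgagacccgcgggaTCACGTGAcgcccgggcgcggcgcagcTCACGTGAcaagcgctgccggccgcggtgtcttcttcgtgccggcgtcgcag
MCOLN1: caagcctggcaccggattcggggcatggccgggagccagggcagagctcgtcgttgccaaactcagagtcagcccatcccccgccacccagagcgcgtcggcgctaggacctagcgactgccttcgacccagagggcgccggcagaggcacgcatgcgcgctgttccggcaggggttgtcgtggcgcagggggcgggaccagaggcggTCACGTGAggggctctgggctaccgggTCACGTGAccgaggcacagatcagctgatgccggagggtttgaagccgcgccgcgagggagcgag

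The CLEAR core was found in 5 of the 29 genes with a window (17.2%, against 1.18% of 27305 genes in the table), namely ATG3, ATP6V0D1, CTSA, LAMP1 and MCOLN1. Of these ATG3 alone was called with particulate, while LAMP1 and MCOLN1, each with 2 copies, were not. The antioxidant core was found in 8 of 29 genes (27.6%, against 16.1% of all), namely CTSL and GLA, which rose with particulate, and MAP1LC3B, ATP6V0D1, CALCOCO2, CTSA, CTSD and LAMP1, which were not called. The E-box was found in 7 (24.1% against 8.77%). The C/EBP-ATF site was found in 0 of 29 (4.45% of all). A match describes the letters of a window and is no measure of binding. The CLEAR motif is known from autophagy and lysosome genes, so its higher share reflects how the list was made and is no result about the treatments. CTSB, LAMP2, HEXA, ATP6V1A and ATP6V1H had no window.

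NRF2, encoded by NFE2L2, is held down by KEAP1, which p62 can bind, and SQSTM1 is itself a textbook NRF2 target. Of 9 genes of that system 6 rose with particulate and 0 fell. The quinone reductase gene NQO1 had 146 and 171 CPM in control and 1065 and 941 CPM with particulate (log2 2.67 ± 0.18, adjusted p = 2.9e-05), and the cystine importer gene SLC7A11 9.7 and 9.8 against 105 and 156 CPM. NFE2L2 had 148 and 152 against 138 and 151 CPM and KEAP1 146 and 135 against 131 and 106 CPM. Whether SQSTM1 rose through this system was not tested.

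Related gene lists are given beside the shares of all genes, of which 9.11% rose and 11.5% fell in this comparison. Of 29 other genes of the autophagy machinery 3 rose (10.3%) and 1 fell (3.45%): VMP1, a lipid scramblase needed to form autophagosomes, had 76.7 and 82.6 CPM in control against 216 and 181 CPM (log2 1.32 ± 0.17, adjusted p = 0.000801), UVRAG, a BECN1 partner, rose by 0.76 ± 0.20, and RB1CC1 (FIP200), the scaffold of the ULK1 complex, fell from 123 and 121 to 51.2 and 81.7 CPM (log2 -0.88 ± 0.22). Of the ULK1 complex ATG13 and RB1CC1 thus fell, while ULK1 and ATG101, on opposite sides of control, were not called. Of 14 other cargo receptors and mitophagy genes 0 rose and 1 fell (7.14%), namely PINK1, the kinase that marks damaged mitochondria, with 276 and 265 against 152 and 131 CPM (log2 -0.94 ± 0.14, adjusted p = 0.00196).

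Of 19 other V-ATPase subunits 3 rose (15.8%) and 0 fell. ATP6V0A2 rose by 1.12 ± 0.16, from 18.3 and 18.2 to 37.4 and 41.9 CPM, ATP6V0A1 by 0.73 ± 0.17 and ATP6V0B by 0.69 ± 0.18. The 3 encode parts of the membrane sector. Of 33 other lysosomal hydrolases 2 rose (6.06%) and 5 fell (15.2%), which is near the shares of all genes. CTSH, a cysteine protease with aminopeptidase activity, fell from 358 and 332 to 133 and 110 CPM (log2 -1.50 ± 0.17, adjusted p = 0.000374), and CTSF, another cysteine protease, by 0.71 ± 0.16, while SGSH, which removes sulfate from heparan sulfate, rose by 0.79 ± 0.21.

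Of 18 other genes of the lysosomal membrane and of sorting to the lysosome 3 rose and 3 fell (16.7% each). SORT1 (sortilin), a sorting receptor of lysosomal enzymes, fell from 707 and 733 to 297 and 351 CPM (log2 -1.15 ± 0.14), the endolysosomal channel gene TPCN1 fell by 0.77 ± 0.14 and TMEM192 rose by 0.86 ± 0.15. Of 26 regulators of mTORC1 and the MiT/TFE factors 2 rose (7.69%) and 3 fell (11.5%). MITF, the family member that drives pigment genes, fell from 72.2 and 70.2 to 16.8 and 22.9 CPM (log2 -1.84 ± 0.19, adjusted p = 0.000194), so that the 3 related factors had log2 changes of -1.84 (MITF), -0.29 (TFEB) and 0.33 (TFE3), of which the first passed the test. SESN1, a stress-induced inhibitor of mTORC1, fell by 1.01 ± 0.18, and RRAGD, a GTPase that recruits MiT/TFE factors to the lysosome, rose by 1.13 ± 0.32. Of 16 genes that respond to lysosome damage 3 rose (18.8%) and 1 fell (6.25%), and TRIM16, a galectin partner, rose by 1.16 ± 0.17 and FBXO27, which tags exposed lysosomal glycoproteins, by 0.99 ± 0.18, while UBXN6, a cofactor of the segregase VCP, fell by 0.71 ± 0.18. In alternatives run after these calls had been seen, VMP1, PINK1, ATP6V0A2, CTSH, SORT1, MITF, TRIM16, NQO1 and SLC7A11 passed in 16 of 16, and the other genes named from these lists lost the call without at least 1 of the control libraries.

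**Figure D4:**
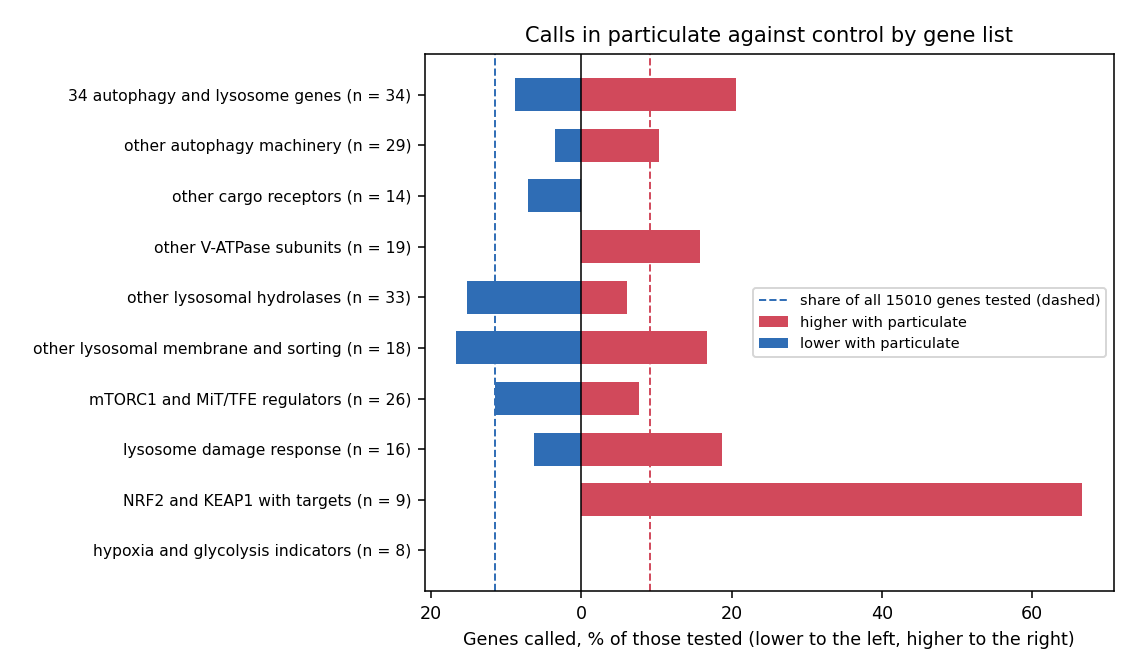
Share of the tested genes of each list that were called higher (bars to the right) or lower (bars to the left) in particulate against control, in percent, with dashed lines at the share over all 15010 genes (9.11% higher, 11.5% lower). The 34 genes lie at 20.6% higher and 8.82% lower, and the NRF2 list at 66.7% higher.

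Fucoidan against control asks what the polysaccharide did alone, and no autophagy or lysosome gene was called. Over all genes 0% were called too, with 662 of 15010 at an unadjusted p under 0.05 and 0 of the 34 members. The log2 fold changes of the members ran from -0.29 (GLA) to 0.26 (TFEB), with a median absolute value of 0.10 against 0.16 over all genes. Other tools called 23 genes (DESeq2), 313 genes (limma-voom with quality weights) or 1 gene (limma-trend on TPM) in all and 0 members. SQSTM1 (757 and 740 CPM against 784 and 751 CPM) and CTSL (111 and 116 CPM against 110 and 116 CPM) overlapped with control. Many members lay wholly to one side of control by small amounts, such as NEU1 with 112 and 118 CPM against 97.1 and 99.2 CPM and CTSB with 753 and 758 CPM against 883 and 881 CPM. The share of all genes that did so was not counted.

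Combination against particulate asks whether fucoidan changed the state of cells that also received particles. It called 0 of the 34 genes, with 0.0866% of all genes called. An unadjusted p under 0.05 was found for 6 of the 34 members and for 2599 of 15010 genes (17.3%), so the members were near the share of all genes. The lowest adjusted p was that of CTSL, at 0.218: its 238 and 219 CPM in the combination lay below both particulate libraries (342 and 303 CPM), a log2 difference of -0.50 ± 0.14. GLA lay below in the same way (58.5 and 60.5 against 94.1 and 72.9 CPM, log2 -0.49 ± 0.18, adjusted p = 0.254). NBR1, OPTN, GABARAPL1 and ULK1, all of which had lower values with particulate than in control, lay above their particulate libraries in both combination libraries, by 0.34 ± 0.14, 0.57 ± 0.19, 0.63 ± 0.19 and 0.56 ± 0.19 log2 units. ATG13 did so too (123 and 129 against 118 and 109 CPM). GABARAP, WIPI2, HEXA, TFEB and CTSA were also lower with particulate but overlapped here. In combination replicates 1 and 2 OPTN had 154 and 102 CPM, GABARAPL1 61.6 and 42.8 CPM and ULK1 68.7 and 48.6 CPM. NBR1 had 133 and 153 CPM. The share of all genes that separated in this way was not counted. The particulate libraries enter both this comparison and particulate against control, with opposite sign. Opposite directions in NBR1, OPTN, GABARAPL1, ULK1, ATG13, CTSL and GLA are therefore not independent of each other. SQSTM1 overlapped (2534 and 1943 against 2616 and 2330 CPM, log2 -0.14 ± 0.16). DESeq2 also called 0 members, as did each of the other alternatives except the one without combination replicate 2, which called 6 (OPTN, CALCOCO2, MAP1LC3B, GABARAPL1, ULK1 and TFE3, all higher) beside 3257 genes in all (20.9%). That result rests on combination replicate 1, the library with the high hypoxia indicators, whose part in it was not tested.

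Combination against control asks for the joint effect of the agents. A total of 7 members were higher (20.6%, against 8.17% of all genes) and 2 lower (5.88%, against 8.86%). SQSTM1 (log2 1.54 ± 0.16, adjusted p = 0.000504), CTSL (1.02 ± 0.14), GLA (0.95 ± 0.18), WIPI1 (0.74 ± 0.17), NEU1 (0.70 ± 0.17) and ATG3 (0.69 ± 0.17) rose, and NBR1 fell (-0.48 ± 0.14, adjusted p = 0.0452). MAP1LC3B and GABARAP were called here and not with particulate alone. MAP1LC3B rose by 1.05 ± 0.30 (adjusted p = 0.0408), but its log2 fold change was 0.36 without combination replicate 1, and the call held in 7 of 16 alternatives. GABARAP had 10.0 and 9.8 CPM in the combination against 17.8 and 14.6 CPM (log2 -0.71 ± 0.21, adjusted p = 0.0465), a call that also held in 7 of 16. SQSTM1 and CTSL passed in 16 of 16 and GLA in 14, with the call lost without either control library. The calls of WIPI1, NEU1, ATG3, NBR1 and GABARAP were also lost without either control library or either fucoidan library. The members called numbered 2 without either control library, 3 without either fucoidan library, 4 without combination replicate 1 and 15 without combination replicate 2. Over all genes 2.62% and 3.78% were called without control replicates 1 and 2, 9.43% and 9.46% without fucoidan replicates 1 and 2, and 15.9% and 33.0% without combination replicates 1 and 2. This comparison and the first share the control libraries.

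Combination against fucoidan asks what the particles did in cells that had fucoidan. The groups it compares share no library with those of particulate against control, though both comparisons come from the same fit. It called 6 members higher (17.6%, against 10.2% of all genes) and 2 lower (5.88%, against 10.6%). SQSTM1 rose by 1.58 ± 0.16 (adjusted p = 0.00035), GLA by 1.24 ± 0.18 (0.00206), CTSL by 1.01 ± 0.14 (0.0016), ATG3 by 0.83 ± 0.17 (0.00923), TFE3 by 0.81 ± 0.18 (0.0144) and ATG16L1 by 0.69 ± 0.16 (0.0167) on the log2 scale. GABARAP fell by 0.78 ± 0.21 (0.0284) and NBR1 by 0.58 ± 0.14 (0.019). TFE3 had 122 and 124 CPM with fucoidan and 257 and 174 CPM in the combination. The count fell to 3 (SQSTM1, CTSL and GLA) without either fucoidan library, where 4.78% (without replicate 1) and 5.80% (without replicate 2) of all genes were called, and rose to 16 without combination replicate 2, where 34.3% of all genes were called.

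Across these separate sets of 4 libraries, 30 of 34 members had a log2 fold change of the same sign, where 78.9% of all genes did. Both comparisons are contrasts of the same fit to all 8 libraries, with shared scaling and a shared estimate of spread. Their calls are therefore not independent tests. All 10 members called with particulate alone had the same sign in the presence of fucoidan, as did 98.5% of all genes called with particulate alone. Of the 10 members, 6 (60%) were called there, which are 75% of the 8 called in that comparison: SQSTM1, CTSL, GLA, ATG3 and ATG16L1 rose in both and NBR1 fell in both. Over all genes called with particulate alone, 65% were called with the same sign with fucoidan present. The members called in neither numbered 22.

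**Figure D5:**
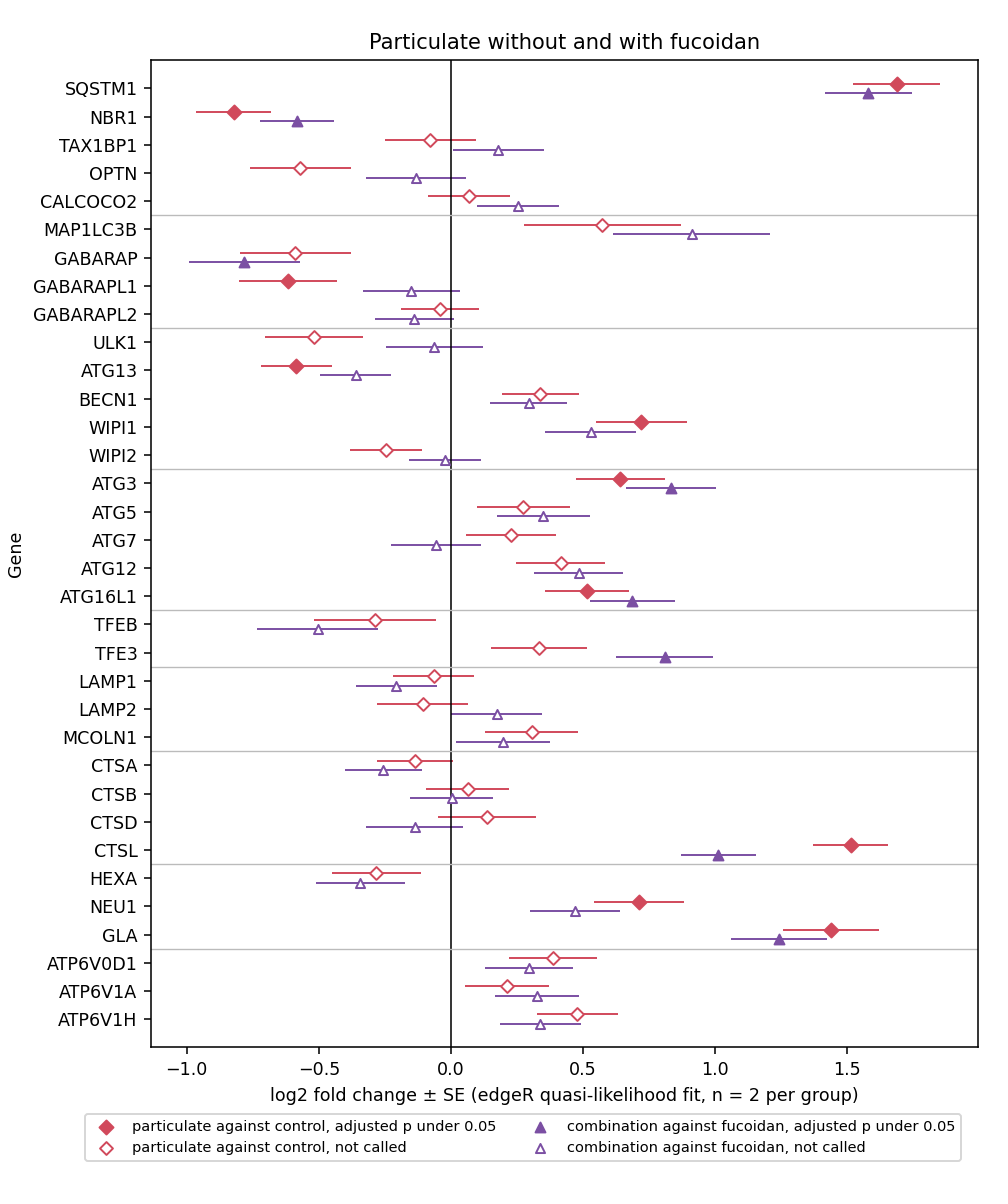
Log2 fold change (points) ± SE (bars) from edgeR's fit for the 34 genes, in particulate against control (diamonds) and combination against fucoidan (triangles), with filled symbols for an adjusted p under 0.05. SQSTM1, CTSL and GLA lie above 1 in both, and NBR1 lies below 0 in both.

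The interaction, which asks whether the effect of particulate differed with fucoidan present, called 0 members and 0% of all genes, with 668 genes and 1 member at an unadjusted p under 0.05. CTSL was that member, with a log2 difference of -0.50 ± 0.20 (adjusted p = 0.897). DESeq2 called 17 genes and 0 members. Without combination replicate 2 the fit called 2 members (MAP1LC3B and TFE3) and 5.56% of all genes, a like share. With 2 libraries per group, an interaction has an SE of 0.19 to 0.42 log2 units in these genes, so a missed threshold does not show that the effects were alike.

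The count of the first comparison moved with the libraries used. The 10 members called in particulate against control became 3 without control replicate 1, 4 without control replicate 2, 6 without either particulate library and 18 without either combination library. The share of all genes called moved with it, from 20.6% to 5.83% and 7.70% when the first or the second control library was removed, 13.9% when particulate replicate 2 was, and 32.4% and 32.1% when combination replicate 1 or 2 was. SQSTM1, CTSL and GLA were called in each of these.

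Some counts may hold reads of neighbours. The kit marks strand, but whether the counting used it is not stated in these sources, and 21 of the 34 genes overlap a gene on the opposite strand in GENCODE 29. MGAT4B, which overlaps SQSTM1, had 29.4% as many reads as SQSTM1 and a log2 fold change of -0.14 ± 0.15 with particulate. FBXO31, opposite MAP1LC3B, had 16.3% as many reads as it and a change of 0.46 ± 0.16, ARSG, opposite WIPI1, 53.0% and -0.25 ± 0.24, and SLC35A5, opposite ATG3, 107% and 0.00 ± 0.15. Reads of ATG7, BECN1, ATG12 and, on the same strand, MCOLN1 were fewer than those of an overlapping gene. MAP1LC3B has a near-identical copy, MAP1LC3B2, with 4.32% as many reads. CTSL and NEU1 overlap no annotated gene on either strand.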

How the data were processed

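ARPE-19 libraries had been made with a stranded poly(A) kit and read as 150-bp pairs (NovaSeq), per the labels' protocols. Reads were trimmed with fastp 0.20.0, checked with FastQC 0.11.9, aligned with HISAT2 2.1.0 to GRCh38 and counted with featureCounts of Subread 2.0.1, per the submitters' processing notes. The annotation release, the strand setting, the handling of reads with several alignments and the tool behind the TPM values are, as far as these sources go, not given. The deposited counts were used as raw whole numbers per gene, and the deposited TPM values for levels per length and in an alternative fit.

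The low-count filter was filterByExpr of edgeR, given the 4 groups (it kept 15010 of 60623, with 33419 that had no read). Libraries were scaled by TMM, and edgeR 4.0.16 in R 4.3.3 fitted 1 mean per group to all 8 libraries (glmQLFit, glmQLFTest, 4 residual degrees of freedom, common dispersion 0.0288). The SE was taken as |log2 fold change| over the root of F. The 6 comparisons are contrasts of that fit, adjusted by Benjamini-Hochberg over all genes within each. Alternatives were DESeq2 1.42.0, limma 3.58.1 (trend on log2 of TPM + 1, voom with quality weights), other scaling and filters, a replicate block, a fit of the 2 groups compared, and each library left out. The code was tested on simulated data.

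All 34 members were named, and of each other list up to 3 called genes with the smallest adjusted p in particulate against control, plus NRF2 genes and hypoxia indicators. ATG101 and, under other observations, further regulators of mTORC1 and the MiT/TFE factors were named outside this rule. The members and lists were chosen with earlier results of these data known. Coordinates are those of GENCODE 29 (GRCh38), used for names and overlaps.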

Additional observations from a re-analysis of the deposited data

How the results depend on the processing

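Members called numbered 10 in particulate against control, 0 in fucoidan against control, 0 in combination against particulate, 9 in combination against control, 8 in combination against fucoidan and 0 in the interaction. Leaving out single libraries gave 3 to 18, 0, 0 to 6, 2 to 15, 3 to 16 and 0 to 2. There the lone library left in a group is assumed to vary like the others. A fit of only the 2 groups compared gave 13, 0, 0, 3 and 4 in the 5 pairwise comparisons. Size factors by RLE, other filters, DESeq2, limma-trend on TPM and limma-voom with quality weights gave 9 to 14 for particulate against control, 7 to 10 for combination against control and 8 to 9 for combination against fucoidan, and 0 in the other comparisons. No call of a member changed its sign in any alternative run. The cause of the moves was not tested.

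Replicate numbers are not stated to mark a shared batch, and the deviations of same-numbered libraries correlated at -0.25 to 0.08 between groups. A fit with the replicate number as a block gave 8, 0, 0, 6, 8 and 0 members in the order above.

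Counts over all genes moved more. Fucoidan against control went from 0 to 73 (no filter), 23 (DESeq2), 1 (limma-trend), 313 (limma-voom) and 849 (only these groups), with 0 to 38 without single libraries. Combination against particulate went from 13 to 1197, 310, 5, 4 and 0 in the same order, to 3 with the block, and to 0 to 3257 without single libraries. The interaction went from 0 to 156 (no filter) and 17 (DESeq2), and to 0 to 865 without single libraries. Combination against control went from 2556 to 1026 and combination against fucoidan from 3110 to 1511 with only the groups compared. Without single libraries the count was 906 to 5003 (3089 with all) in particulate against control, 407 to 5137 in combination against control and 743 to 5339 in combination against fucoidan. In the limma-voom fit the quality weights were 1.996 to 2.202 in the control and fucoidan libraries, 0.621 and 0.630 with particulate and 0.362 and 0.372 in the combination. With 2 libraries per group, the SE of a member's log2 fold change in particulate against control was 0.13 to 0.30.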

Other observations

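Some genes that govern the nutrient branch of lysosome signalling, chosen for mention after their values were seen, were called in the combination. Of 26 tested regulators of mTORC1 and the MiT/TFE factors, 6 were higher (23.1%, against 8.17% of all genes) and 3 lower (11.5%, against 8.86%) in combination against control. Against fucoidan 8 were higher (30.8%, against 10.2%) and 5 lower (19.2%, against 10.6%). The genes lower against control were LAMTOR1, MLST8 and MITF, and against fucoidan SESN1 and FOXO1 as well. LAMTOR1 had 236 and 233 CPM in control and 130 and 150 CPM in the combination (log2 -0.74, edgeR adjusted p = 0.0154). MLST8 had 68.9 and 67.4 against 42.0 and 41.5 CPM (log2 -0.71, adjusted p = 0.0208). FNIP2, a partner of folliculin, had 33.9 and 33.9 CPM in control, 38.1 and 33.5 CPM with fucoidan, 29.7 and 57.2 CPM with particulate and 170.5 and 59.0 CPM in the combination (log2 1.76 ± 0.44 against control, edgeR adjusted p = 0.0263). SESN2, a leucine-sensing inhibitor of mTORC1, had 24.7 and 22.6 CPM in control and 144 and 47.0 CPM in the combination (log2 2.01 ± 0.42, adjusted p = 0.0122). With particulate alone it had 46.0 and 61.2 CPM, above control and not below combination replicate 2 in the second library. FLCN (folliculin), which mTORC1 needs in order to restrain TFEB and TFE3, had 30.9 and 27.6 against 91.5 and 37.8 CPM (log2 1.14 ± 0.33, adjusted p = 0.0433), a call that held in 6 of 16 alternatives. With particulate alone it had 38.4 and 36.8 CPM. RRAGC, a GTPase, had 29.1 and 31.7 against 95 and 36.5 CPM and was not called against control (adjusted p = 0.0552). With particulate alone it had 46.9 and 44.7 CPM, above combination replicate 2. Against fucoidan RRAGC was called (log2 1.14, adjusted p = 0.0449), in 6 of 16 alternatives.

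FNIP2, SESN2, FLCN and RRAGC were high mainly in combination replicate 1, the library with 10890 CPM of summed hypoxia and glycolysis indicators against 1869 CPM in its replicate. Without that library 4 of the 6 higher calls against control were lost (FLCN, FNIP1, FNIP2 and LAMTOR3). SESN2 and RRAGD passed there, but lost the call without either control library, and with single libraries left out their log2 values fell as low as 1.00 (2.01 with all) and 0.72 (1.40 with all). MITF, which fell with particulate, was below control in both combination libraries (24.3 and 28.2 CPM against 72.2 and 70.2 CPM, log2 -1.44 ± 0.18, adjusted p = 0.0013) in 16 of 16 alternatives. The part of hypoxia genes in these values was not tested.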
